A study of Homo sapiens with 6 samples.

Results

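Type I interferon-induced genes were followed in IGROV-1, a human line of ovarian carcinoma, kept for 24 h in medium and ascites of mice at equal volumes. The ascites was cell-free supernatant. The set holds 40 genes listed by symbol, chosen with earlier results of these data known. The rule that picked their probes used no measured value. All probes carrying one of those symbols, old or current, in the platform annotation were taken, which gave 55 probes for 38 of the 40 genes among 18852 genes named on the array. STAT2 and USP18 were not analysed here. One group of cells received ascites from mice treated with saline. The other received ascites from mice injected with CpG oligodeoxynucleotide ODN1826 at 20 µg per mouse, once or on 3 consecutive days, and killed 24 h after the last dose. All donor mice in both groups, 3 per group, carried IGROV-1 tumours in the peritoneum. Each group was read on 3 one-colour Illumina arrays. The labels do not say which schedule each ascites came from, whether fluid was pooled, or whether separate mice or cultures stand behind the 3 arrays of a group. The p-values therefore cover the spread among these arrays alone, and that spread may be technical. The cells and their receptors are human, whereas the fluid came from mice.

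Type I interferons are secreted proteins that bind a receptor of 2 chains, IFNAR1 and IFNAR2, and act through the kinases JAK1 and TYK2. These activate a transcription factor complex that holds STAT2 and IRF9 and binds a DNA motif, the interferon-stimulated response element, in the promoters of the genes studied here. Many of these genes encode proteins that sense viral RNA, degrade it, block its translation or bar viral entry. CpG oligodeoxynucleotides activate Toll-like receptor 9, and plasmacytoid dendritic cells answer that signal with type I interferon.

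Promoter windows were searched for the response element. The genes were listed as interferon-induced, so a high share with this element is not independent of that choice. The windows run from 250 bases before to 50 bases after each gene start, in RefSeq on GRCh38.p14. The core of the response element, GAAA followed by any 2 bases and again GAAA, was searched on both strands, and matches were allowed to overlap. It was present in 22 of the 31 members with a window (71.0%), against 4.38% of the 27305 genes with a window, or 1255 of 35116 windows (3.57%). The 9 members without a window were IFIT2, IFITM2, MX2, OAS2, OASL, IRF7, USP18, TRIM22 and LY6E. A total of 6 stretches are printed for the members with the smallest p below that hold the motif, with 10 bases on each side of the outermost matches. Each reads from 5′ to 3′ on the strand of the gene, with capitals marking the motif or its reverse complement.
HERC5, chr4:88456984-88457064, plus strand: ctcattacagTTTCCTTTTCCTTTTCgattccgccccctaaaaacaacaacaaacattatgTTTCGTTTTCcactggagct
RSAD2, chr2:6877622-6877651, plus strand: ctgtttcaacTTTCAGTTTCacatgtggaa
IFI6, chr1:27672266-27672358, minus strand: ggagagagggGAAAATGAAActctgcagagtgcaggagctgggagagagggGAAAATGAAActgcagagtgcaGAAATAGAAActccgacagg
IFI27, chr14:94110618-94110660, plus strand: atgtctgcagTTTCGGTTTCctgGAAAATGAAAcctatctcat
IFIT1, chr10:89392497-89392539, plus strand: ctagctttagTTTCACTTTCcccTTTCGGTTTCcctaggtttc
IFIH1, chr2:162318686-162318853, minus strand: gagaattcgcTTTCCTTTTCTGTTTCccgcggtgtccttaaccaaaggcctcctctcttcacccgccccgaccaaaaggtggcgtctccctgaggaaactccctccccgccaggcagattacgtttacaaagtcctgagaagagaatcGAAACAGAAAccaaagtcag
HERC5, IFI6 and IFIH1 have 3 matches each, IFI27 and IFIT1 have 2, and RSAD2 has 1. A match is a description of the letters and not a site shown to be used.

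IGROV-1 cells expressed most of the set before any comparison of the groups. A total of 29 of the 38 genes with a probe (76.3%) were above background, at a detection p under 0.01, on at least 3 of the 6 arrays. Of all named genes, 48.9% were, or 9211. The detection p, deposited with the arrays, sets each probe against the negative controls of its array. Of these 29 members, 25 were above background on all 6 arrays at the probe used. The other 9 were above background on no array at any probe. They were MX2, the partner of the antiviral GTPase MX1, CMPK2, the nucleotide kinase gene next to RSAD2, IFIT5, IFI44L, EPSTI1, TRIM22, XAF1, SAMD9 and SAMD9L. Detection by these probes says nothing about lower levels.

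Signal was similar between arrays, with mean probe intensities of 587 to 788 and 13303 to 13835 of 48801 probes above background per array. CpG ascites replicate 1 stood apart from the rest, correlating at 0.948 to 0.958 with the other 5 arrays and having the lowest array weight, 0.268 against 0.612 to 1.95. Values without it are given below for IFIT3, IRF7, HERC6, PARP9, DDX60 and LY6E. Of 8 ovarian carcinoma genes, PAX8, EPCAM, KRT19, FOLR1, MUC1 and CD24 were above background on all 6 arrays, KRT18 on 5 and KRT8 on none. The summed linear signal of that list ran from 23479 to 24575 in saline ascites and from 28311 to 29700 in CpG ascites, without overlap. MUC1 and CD24 were higher in CpG ascites at an unadjusted p under 0.05 in limma, with adjusted p of 0.193 and 0.367. KRT18 went the other way, with a CpG minus saline log2 difference of -1.07 ± 0.64 (SE) and overlap. Most of that fall lay on CpG ascites replicate 1, as the CpG values were 4.75, 7.03 and 7.49 against a saline mean of 7.49. PAX8, KRT19, EPCAM and FOLR1 had differences of 0.29, 0.21, 0.042 and 0.012. The part of the shift in summed signal in the values below was not tested. Of 9 leukocyte genes with a probe, 7 were above background on no array, including the pan-leukocyte gene PTPRC and the monocyte gene CD14, while CD68 was above background on all 6 and LYZ on 1. The summed linear signal of the leukocyte list ran from 3175 to 3500 in saline ascites and from 3073 to 3648 in CpG ascites. The plasmacytoid dendritic cell genes IL3RA, CLEC4C and LILRA4 were above background on no array, and of 5 mesothelial and fibroblast genes 4 were on none and MSLN on 2.

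The comparison shows whether tumour cells exposed to ascites of CpG-treated mice carried more or less interferon-induced transcript than cells exposed to ascites of saline-treated mice. Values are log2 intensities after background correction and quantile normalization, and a log2 change is the CpG mean minus the saline mean. No member passed the test in either direction, but part of the set lay lower in CpG ascites. A total of 9 genes had all 3 CpG arrays below all 3 saline arrays. These 9 were the RNA sensor gene IFIH1, the transcription factor gene IRF9, the ISG15 ligase gene HERC5, IFIT1 and IFIT2, OAS2, RSAD2, IFI6 and IFI27. Their fitted log2 changes ran from -0.84 to -0.34. One gene, IFITM3, had all CpG arrays above all saline arrays, by 0.17. The other 19 measured members overlapped, among them ISG15 and MX1, which are often used as readouts of interferon exposure.

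With limma and Benjamini-Hochberg adjustment over all 13713 probes kept, 0 of the 29 members passed an adjusted p of 0.05, as did 0% of all probes. Adjusted p of the 9 lower genes ran from 0.193 to 0.373. At an unadjusted p under 0.05 there were 9 lower and 0 higher members, or 31.0% and none of the 29, against 5.97% and 6.86% of all probes kept. Groups without overlap made up 9.82% of all probes in the lower direction and 10.9% in the higher direction. Over all named genes kept, at 1 probe per gene as for the members, 4.92% were lower at that p and 9.30% lower without overlap. The median log2 change was -0.14 over the 29 members and -0.00037 over all probes kept. RSAD2 and OAS2 entered the 29 only through their saline arrays, so their inclusion favoured a lower value in CpG ascites. Among probes above background on all 6 arrays there were 7 lower members with an unadjusted p under 0.05. Counted by probe, 10 of 32 kept member probes were lower without overlap and 1 was higher. The list was chosen with earlier results of these data known, so these shares only describe it.

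**Figure D1:**
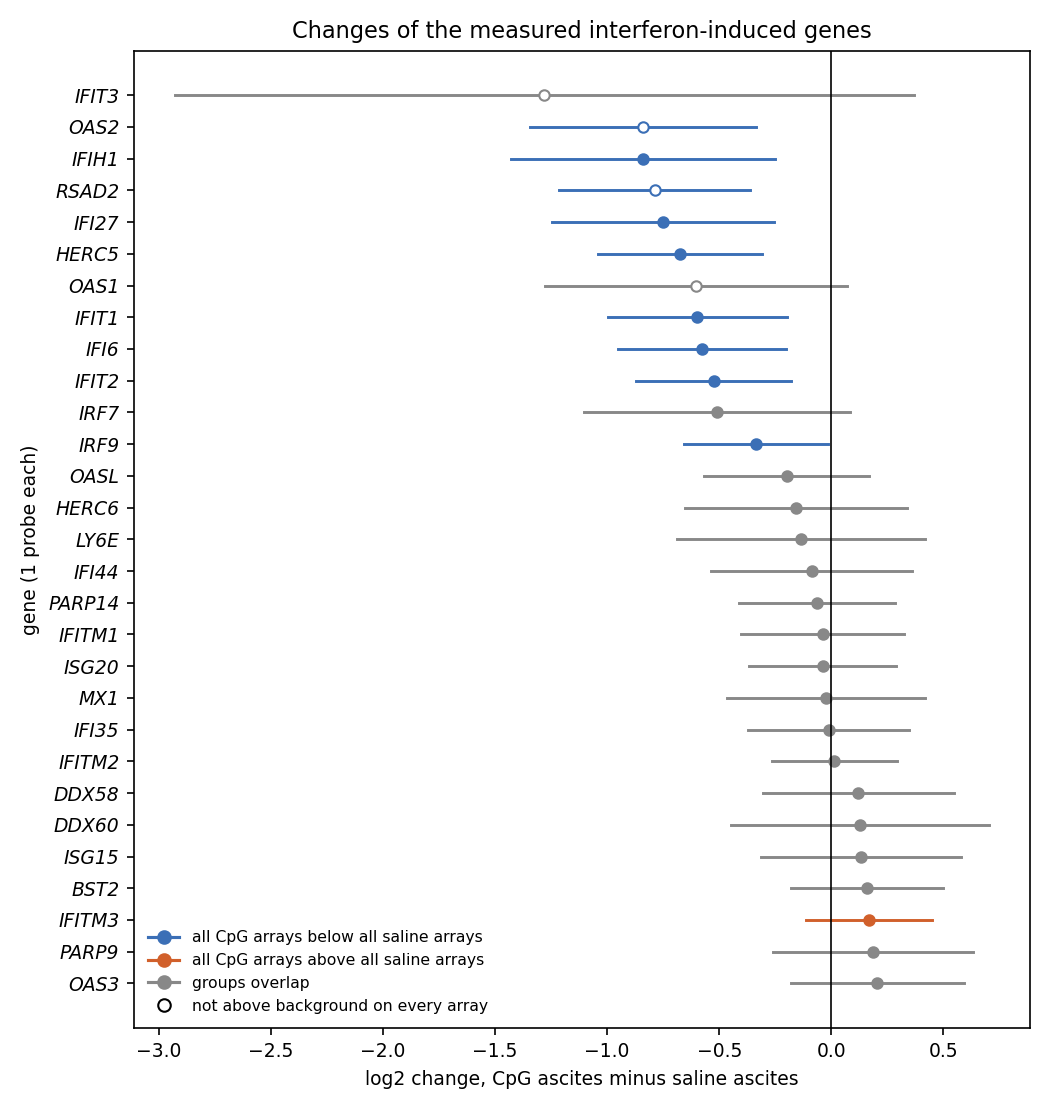
Log2 change (CpG ascites minus saline ascites) of the 29 measured interferon-induced genes, 1 probe per gene, with 95% intervals from limma as horizontal lines. The 9 genes in blue had all 3 CpG arrays below all 3 saline arrays, IFITM3 in orange had them above, and the 19 in grey overlapped; open points mark probes not above background on every array.

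Among the sensors, IFIH1, which encodes the cytosolic detector of long double-stranded RNA, gave log2 intensities of 8.83, 8.63 and 8.30 on saline ascites replicates 1, 2 and 3 and of 7.91, 8.10 and 7.22 on the CpG ascites arrays. Every CpG array lay below every saline array, with replicate 3 the lowest. The log2 change was -0.84 ± 0.25 (SE, n = 3 per group), with a limma adjusted p of 0.279. DDX58, which encodes the related sensor RIG-I, had 6.69, 6.87 and 7.07 in saline ascites and 7.32, 6.90 and 6.76 in CpG ascites. Its groups overlapped, with a log2 change of 0.12 and a 95% interval from -0.31 to 0.55. DDX60, a helicase gene linked to the same sensors, had a log2 change of 0.13 ± 0.25 (SE), with its highest value, 9.20, on CpG ascites replicate 1 and its lowest, 8.27, on CpG ascites replicate 3. Without the former it was -0.059 ± 0.22, and without the latter 0.41 ± 0.16, with an unadjusted limma p of 0.042.

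Both measured transcription factors of the set had lower means in CpG ascites. IRF9, the DNA-binding subunit of the interferon-activated complex, had 10.77, 10.58 and 10.83 in saline ascites and 10.41, 10.24 and 10.53 in CpG ascites, a log2 change of -0.34 ± 0.14 (SE). The gap between the lowest saline and the highest CpG array of IRF9 was small, and the limma adjusted p was 0.373. IRF7, which amplifies interferon production, had 9.10, 8.93 and 8.71 in saline ascites and 7.82, 8.68 and 8.72 in CpG ascites. IRF7 overlapped between the groups, and its mean difference of -0.51 ± 0.25 (SE) was -0.22 without CpG ascites replicate 1. Without CpG ascites replicate 3 it was -0.67 ± 0.27, with an unadjusted limma p of 0.048. Another IRF7 probe was above background on 2 arrays, and one more on none.

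ISG15 encodes a ubiquitin-like protein, HERC5 the main human ligase that attaches it, and HERC6 a close relative of that ligase. HERC5 had the smallest p of the set, with 8.99, 8.65 and 8.58 in saline ascites and 8.09, 8.19 and 7.90 in CpG ascites. The groups were clearly apart, with a log2 change of -0.68 ± 0.16 (SE) and a limma adjusted p of 0.193. ISG15 itself had 10.33, 10.16 and 9.69 in saline ascites and 10.06, 10.37 and 10.15 in CpG ascites. The CpG values of ISG15 lay around the saline values, with a log2 change of 0.13 and a 95% interval from -0.31 to 0.58. HERC6 overlapped, with a log2 change of -0.16 ± 0.21 (SE), and its value turned on single CpG arrays. It was -0.39 ± 0.14 without CpG ascites replicate 1, with an unadjusted limma p of 0.028, and -0.0083 ± 0.21 without replicate 3.

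The IFIT proteins bind viral RNA and block its translation. IFIT1 had 9.51, 9.37 and 9.20 in saline ascites and 8.46, 8.99 and 8.84 in CpG ascites, a log2 change of -0.60 ± 0.17 (SE). IFIT2 had 9.24, 9.20 and 8.93 in saline ascites and 8.50, 8.79 and 8.51 in CpG ascites, a log2 change of -0.52 ± 0.15 (SE). In both genes the CpG arrays lay below the saline arrays, and the limma adjusted p was 0.269 for IFIT1 and 0.264 for IFIT2. IFIT3 gave different answers on its probes. The probe used for the gene had 9.30, 8.92 and 8.50 in saline ascites and 5.77, 8.66 and 8.44 in CpG ascites, where replicate 1 was the only array below background. The log2 change at that probe was -1.28 ± 0.71 (SE), and -0.36 ± 0.22 without CpG ascites replicate 1. A second IFIT3 probe had 7.92, 7.55 and 7.45 in saline ascites and 7.46, 7.46 and 7.72 in CpG ascites, with no such drop on replicate 1 and a log2 change of -0.095 ± 0.17 (SE). The probes carry different RefSeq transcript accessions, and whether transcript variants differ was not tested.

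The OAS enzymes make the oligoadenylate signal that activates the RNA-degrading enzyme RNase L. OAS2 had 7.38, 6.68 and 7.01 in saline ascites and 5.87, 6.35 and 6.32 in CpG ascites. It was above background on all 3 saline arrays and on no CpG array, so it was kept only through its saline arrays. By the means of these arrays OAS2 lay at least 1.38-fold lower, with a limma adjusted p of 0.231. For this bound, each CpG array counts at the lowest signal still above background there, or at the probe's value if that is higher. The bound has no sampling error in it. OAS1 had 7.28, 7.39 and 6.31 in saline ascites, 2 of 3 above background, and 6.51, 6.13 and 6.52 in CpG ascites, 1 of 3 above background. Its groups overlapped at saline ascites replicate 3, and its log2 change of -0.60 ± 0.29 (SE) is uncertain at this signal. Without saline ascites replicate 3, the array that overlapped, it was -0.94 ± 0.19, with an unadjusted limma p of 0.0018. With any other single array left out it was -0.67 to -0.41, with unadjusted limma p from 0.065 to 0.23. OAS3 had a higher mean in CpG ascites, with 9.60, 9.24 and 9.03 in saline ascites and 9.44, 9.50 and 9.55 in CpG ascites, a log2 change of 0.20 and a 95% interval from -0.18 to 0.59. OASL, which resembles the OAS enzymes and assists RIG-I, had a log2 change of -0.20 ± 0.16 (SE) with overlap.

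RSAD2 encodes viperin, a radical enzyme that makes an antiviral nucleotide from a product of the CMPK2 pathway. Its log2 intensities were 7.35, 6.73 and 7.10 in saline ascites and 6.28, 6.43 and 6.11 in CpG ascites. As with OAS2, all saline arrays and no CpG array were above background, so only a bound is given. By the means of these arrays RSAD2 lay at least 1.41-fold lower, with a limma adjusted p of 0.193. This bound has no sampling error in it, and the probe was kept only through its saline arrays.

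IFI6 and IFI27 encode small hydrophobic proteins of intracellular membranes and are among the genes most responsive to interferon. IFI6 had 13.03, 12.71 and 12.48 in saline ascites and 12.14, 12.15 and 12.21 in CpG ascites. The CpG arrays of IFI6 lay close together (SD 0.037) below a wider saline group (SD 0.275), with a log2 change of -0.58 ± 0.16 (SE). A second IFI6 probe, with 9.26, 9.20 and 9.02 in saline ascites and 8.65, 8.43 and 8.99 in CpG ascites, was also lower on every CpG array, by a log2 change of -0.47 ± 0.17 (SE). The unadjusted limma p of that probe, 0.026, ran up to 0.086 when saline ascites replicate 1 or 2 or CpG ascites replicate 2 was left out. IFI27 had 8.35, 8.03 and 7.51 in saline ascites and 7.23, 7.12 and 7.29 in CpG ascites, a log2 change of -0.75 ± 0.21 (SE). Limma adjusted p was 0.264 for IFI27 and for the first IFI6 probe, and 0.338 for the second IFI6 probe. IFI44 and IFI35 overlapped, with log2 changes of -0.088 ± 0.19 and -0.012 ± 0.15 (SE).

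**Figure D2:**
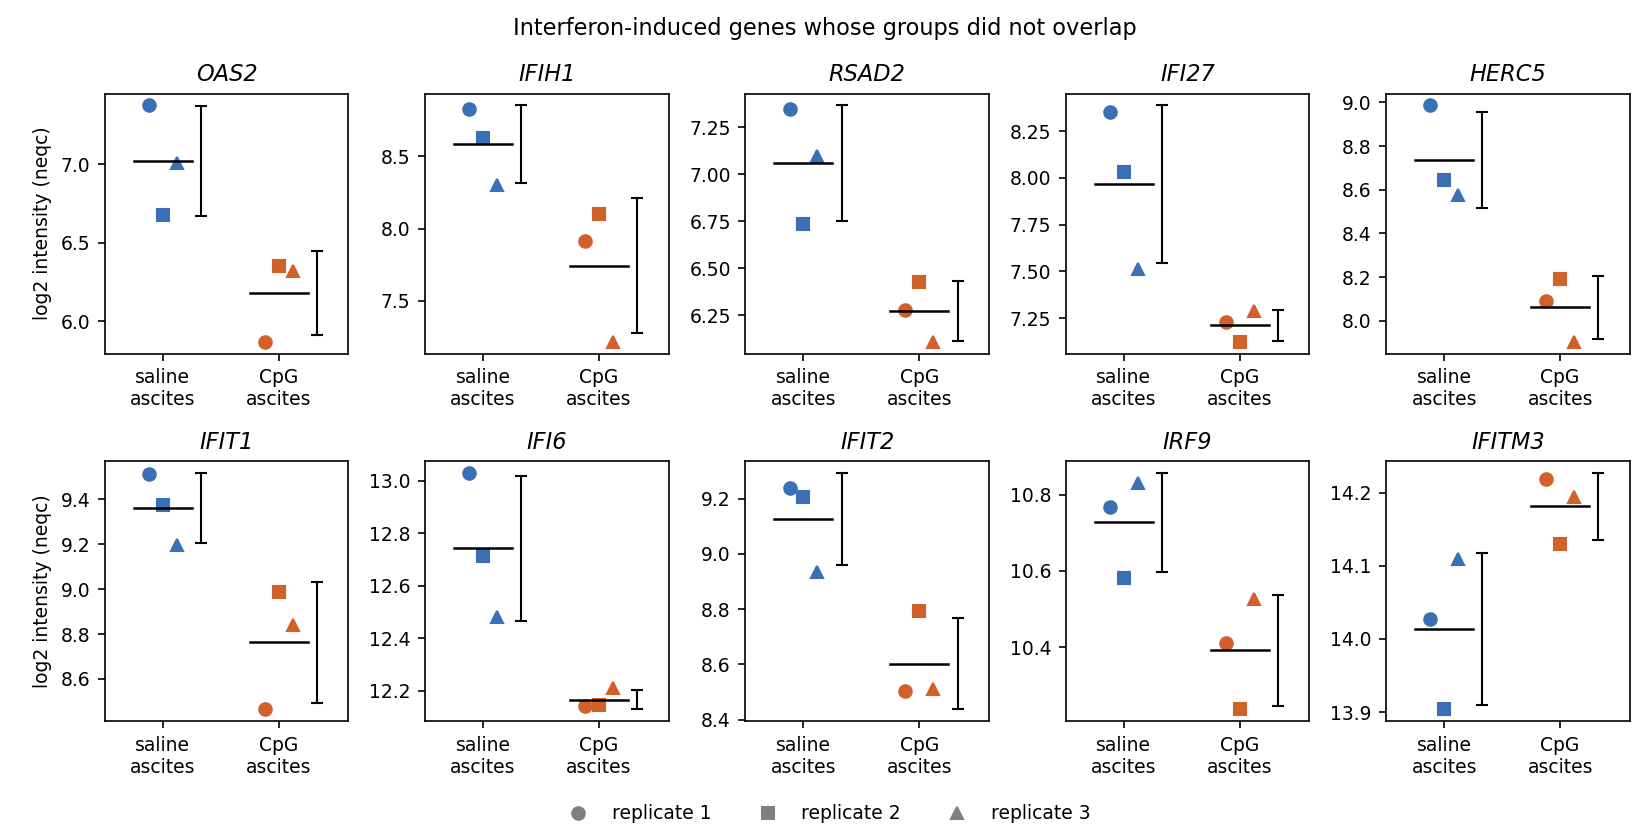
Log2 intensity on each array (y axis, own range in each panel) in saline and CpG ascites for the 10 interferon-induced genes whose groups did not overlap; bars show the mean and, beside it, the SD of 3 arrays, and symbols the replicate. In OAS2 to IRF9 every CpG array lay below every saline array, and in IFITM3 every CpG array lay above.

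Of the 5 membrane proteins, which bar viral entry or release or sit at the surface, none was lower without overlap, and 2 had a mean below saline. IFITM1 had 11.30, 10.93 and 11.06 in saline ascites and 10.98, 10.93 and 11.27 in CpG ascites, with a log2 change of -0.039 and a 95% interval from -0.40 to 0.33. IFITM2 had 14.01, 13.85 and 13.98 in saline ascites and 13.98, 13.89 and 14.02 in CpG ascites, with a log2 change of 0.013 and an interval from -0.26 to 0.29. IFITM3 had 14.03, 13.90 and 14.11 in saline ascites and 14.22, 14.13 and 14.19 in CpG ascites. Every CpG array of IFITM3 was above every saline array, but by a log2 change of only 0.17 ± 0.12 (SE), with a limma adjusted p of 0.579. The IFITM genes are near-identical copies, and whether their probes cross-hybridise was not tested. BST2, the tetherin gene that holds budding virus at the cell surface, had a log2 change of 0.16 ± 0.14 (SE), and LY6E, a surface protein gene, -0.14 ± 0.24 (SE), or 0.10 ± 0.17 without CpG ascites replicate 1.

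The remaining effectors, MX1, ISG20, PARP14 and PARP9, overlapped between groups. MX1, a GTPase that traps viral nucleocapsids, had 8.68, 8.47 and 8.20 in saline ascites and 8.47, 8.68 and 8.13 in CpG ascites, with a log2 change of -0.023 and a 95% interval from -0.46 to 0.42. ISG20, an RNA exonuclease gene, had a log2 change of -0.038 ± 0.14 (SE), and PARP14, an ADP-ribosyltransferase gene, -0.065 ± 0.15 (SE). PARP9, of the same family, had probes of opposite sign. The PARP9 probe used for the gene had 9.89, 9.62 and 9.45 in saline ascites and 10.17, 9.60 and 9.74 in CpG ascites, and the other had 8.06, 8.34 and 8.31 and then 7.89, 8.09 and 7.34. Their log2 changes were 0.19 ± 0.19 and -0.47 ± 0.21 (SE), and both overlapped, so PARP9 has no settled direction. Without CpG ascites replicate 1 they were 0.019 ± 0.16 and -0.52 ± 0.22, the latter with an unadjusted limma p of 0.045. In all, 17 members had a log2 change within 0.25 of 0, and the limits of their 95% intervals reached as far as 0.70, so 3 arrays per group leave room for differences of that size.

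**Figure D3:**
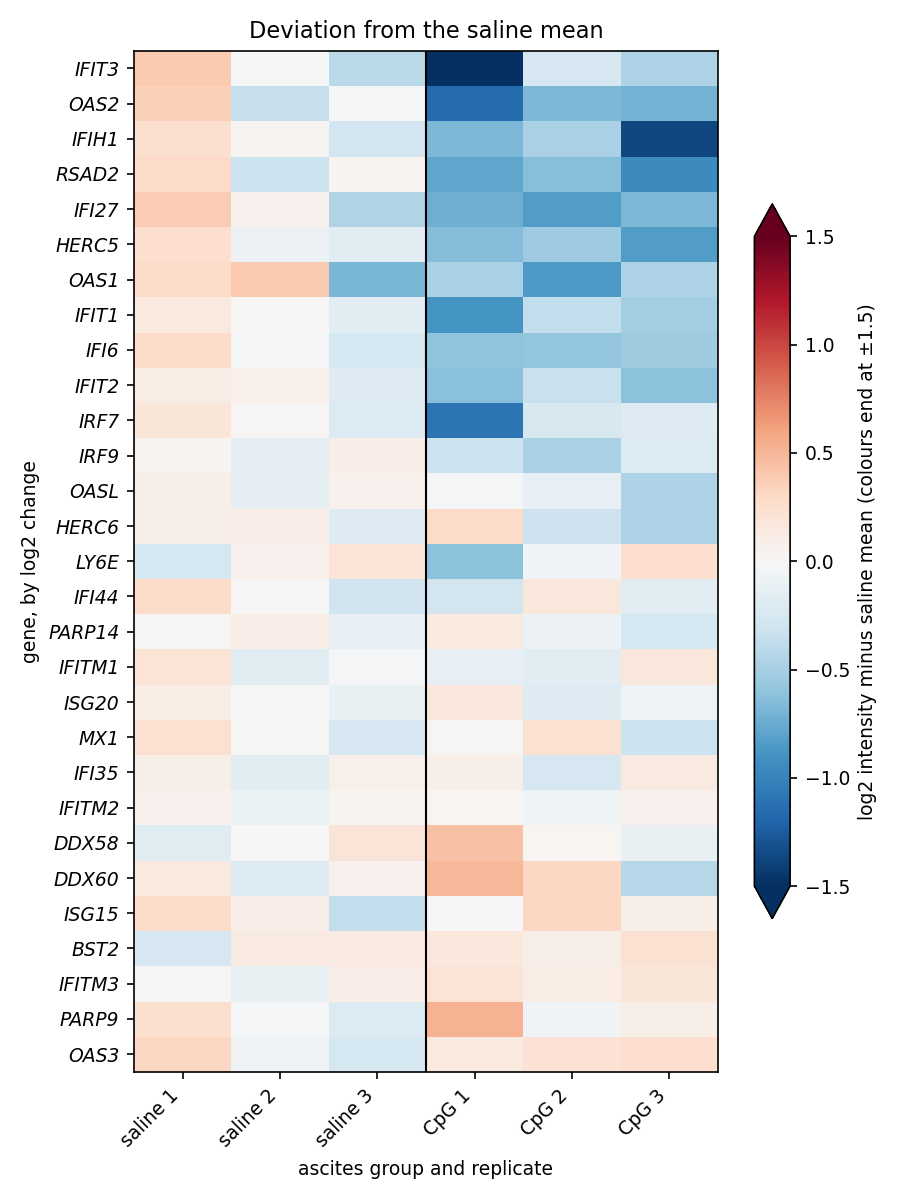
Log2 intensity minus the saline mean for the 29 measured interferon-induced genes (rows, ordered by log2 change) on the 6 arrays (columns), blue below and red above the saline mean. The 9 lower genes are blue on all 3 CpG arrays, IFIT3 and IRF7 are darkest on CpG ascites replicate 1, and saline ascites replicate 1 is the highest saline array for 21 of 29 genes.

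Saline arrays were not alike for these genes. Saline ascites replicate 1 was the highest of its group for 21 of the 29 members and for 8 of the 9 lower ones, against 33.9% of all named genes measured. The median deviation of the 29 members from the saline mean was 0.18 on that array, -0.0048 on replicate 2 and -0.16 on replicate 3. On the CpG arrays it was -0.12, -0.19 and -0.26. Over the 9 lower members it was -0.67, -0.55 and -0.68 on CpG ascites replicates 1, 2 and 3. Without saline ascites replicate 1, 8 members were lower at an unadjusted p under 0.05, and without CpG ascites replicate 1, 10 were. Leaving out replicate 1 of both groups, an alternative added after the values were seen, left 6 lower members and 1 higher one. The lower counts of 8, 10 and 6 all include RSAD2 and OAS2, which were kept only through their saline arrays. The shares of all probes at that p in these settings are not given. Without CpG ascites replicate 1, 21 of all probes kept passed the adjustment, against 0 with all arrays, so the count of 10 is not read as particular to the members. Of the 9 lower genes, HERC5, IFI27, IFI6 and IFIH1 had an unadjusted p under 0.05 in all 18 alternatives, IFIT1 in 17, IFIT2 in 16 and IRF9 in 11. RSAD2 and OAS2 are left out of the count over the 18 alternatives, since they were above background in saline ascites alone.

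Several members are neighbours on a chromosome. The log2 ratio of 2 neighbours on each array was compared between groups in 9 pairs with at most 1 coding gene between them. Probes differ in brightness, so only the difference of a ratio between arrays can be read. Ratios with IFIT3, OAS1 or OAS2 are not given, since those probes were below background on 1 or more arrays. The log2 ratio of HERC5 to HERC6, on chromosome 4, was 1.01, 0.66 and 0.88 in saline ascites and -0.090, 0.61 and 0.48 in CpG ascites. Every CpG array lay below every saline array, by a small margin outside CpG ascites replicate 1, and the mean difference was -0.52. IFITM2 against IFITM3, on chromosome 11, had a difference of -0.15, also without overlap. The two-sided exact permutation p was 0.1 for both pairs, the smallest that 3 against 3 arrays can give, and 0.225 after adjustment over the 9 pairs. IFITM1 overlapped against IFITM2 and against IFITM3, with exact p of 0.5 and 0.3.

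The motif stood in windows of lower members and of others. Among measured members with a window, 6 of the 7 lower ones and 12 of the 16 others held it. ISG15, OAS3, BST2, IFITM1 and IFITM3, which were not lower, have 2 matches each in a window, whereas IRF9 has none. This is a description of the letters only.

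Upstream of these genes, the receptor chains overlapped between groups, and 2 phosphatases of the list did not, 1 in each direction. IFNAR1 and IFNAR2, the receptor chains, had log2 changes of -0.027 ± 0.16 and -0.0018 ± 0.13 (SE), and JAK1 had 0.19 ± 0.15. Of 10 measured genes of the receptor and signalling list, 1 was lower and 1 higher at an unadjusted limma p under 0.05. The same counts held for groups without overlap. Over all probes kept, the shares were 5.97% lower and 6.86% higher at that p, and 9.82% and 10.9% without overlap. A count of 1 of 10 in each direction is near these shares. PTPN6, the phosphatase SHP-1 that dampens JAK signalling, had 7.07, 7.33 and 7.22 in saline ascites and 8.43, 7.73 and 8.11 in CpG ascites. Its log2 change was 0.88 ± 0.19 (SE), with a limma adjusted p of 0.185. PTPN11, the related phosphatase SHP-2, had -0.36 ± 0.12 (SE), with an adjusted p of 0.302.

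Genes that sense nucleic acid and induce interferon were counted apart from the members IFIH1, DDX58 and IRF7, given above. Of the 7 others measured, 0 had an unadjusted limma p under 0.05, against 5.97% lower and 6.86% higher among all probes kept. Their limma adjusted p was above 0.05 throughout. IKBKE, a kinase that activates IRF3, had 0.46 ± 0.20 (SE), the adaptor gene TRAF3 0.40 ± 0.19 and TICAM1, the adaptor of Toll-like receptor 3, -0.34 ± 0.20. TLR9, the receptor for CpG DNA, and MYD88 were above background on no array. Of 13 interferon ligand genes on the array, 11 were above background on no array, among them IFNB1. IFNE, an interferon of the reproductive tract, had 8.17, 7.55 and 7.84 in saline ascites and 9.25, 8.12 and 7.87 in CpG ascites, with overlap and a log2 change of 0.56 ± 0.35 (SE). IFNA8 had 0.047 ± 0.17 (SE).

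A list of 40 further interferon-induced genes was read alongside, of which 26 were measured. At an unadjusted limma p under 0.05, 3 were lower and 3 higher, against 5.97% and 6.86% of all probes kept. Without overlap, 5 were lower and 3 higher, against 9.82% and 10.9% of all probes kept. Of the 26, 0 passed the adjustment over all probes. EIF2AK2, the double-stranded RNA-activated kinase PKR, had -0.40 ± 0.15 (SE). TRIM25, the ubiquitin ligase that activates RIG-I, had 0.43 ± 0.15, and TENT5A, a poly(A) polymerase gene, 0.35 ± 0.13. The median log2 change of these 26 genes was -0.081. CXCL10, CXCL11, TNFSF10 and 9 others were above background on no array.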

How the data were processed

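IGROV-1 cells exposed to saline or CpG ascites were profiled on 6 arrays, 3 per group. Per the submitters' processing notes, arrays were summarised with BeadStudio. The deposited probe intensity table is not normalized and also gives a detection p-value per probe, per the file headers. A second table of the authors' processed intensity, whose method the sources used here leave unstated, has the same ranks on each array and medians of 121, and served as an alternative. Its log2 changes nearly equalled those of quantile normalization without background correction, such as -0.53 for HERC5, -0.57 for IFI6 and -0.44 for IFIT2 with either. These 2 alternatives are therefore close to a single setting. No per-sample column was left out.

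Intensities were corrected and quantile normalized with neqc of limma 3.58.1 in R 4.3.3 (offset 16, log2). Probes with detection p under 0.01 on at least 3 arrays were kept (13713). Platform annotation named 28097 probes with 1 symbol, 13 with several and 20691 with none. Of the named probes, 28058 were matched by gene number to the current RefSeq table. The brightest kept probe stood for a gene. Groups were compared with lmFit and eBayes, two-sided, with Benjamini-Hochberg adjustment over all probes kept, and the number of arrays limits precision. On simulated data over 13713 probes for this comparison, 67% of 100 probes changed by a log2 of 1 and 91% of 100 changed by a log2 of 2 were recovered, with 4 false calls. Noise was drawn independently for each probe and array, so an outlying array such as CpG ascites replicate 1 was not modelled. Both sizes exceed the largest fall among the lower genes without overlap, -0.84, so recovery at the members' sizes was not tested. Neighbouring genes, a comparison outside the set of tests first laid down, were compared with exact permutation tests (SciPy 1.17.1).

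The members, the pathway lists and the rule for named genes were chosen with earlier results of these data known. Values on every array were given for members with an unadjusted p under 0.05, without overlap, or with probes opposite in sign by over 0.5, and for ISG15, MX1, IRF7, IRF9, the IFITM genes and DDX58. Values of IFIT3, OAS1 and OAS3 on every array were chosen after they were seen. Up to 3 genes with the smallest p were named from each other list, with IFNAR1 and IFNAR2. Alternatives were other background corrections, median scaling, the authors' values, other filters, the mean of all probes, a mean-variance trend, array weights, a replicate block and each array left out. A slide block could not be fitted, as the column names give no slide.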

Additional observations from a re-analysis of the deposited data

How the results depend on the processing

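No member passed an adjusted p of 0.05 in any of the 18 alternatives, where the lowest adjusted p of a member was 0.134 (without CpG ascites replicate 1). The count of members lower at an unadjusted p under 0.05 was 7 to 10 in all alternatives but the one without replicate 1 of both groups, chosen after seeing the data, which gave 6, and none of the 9 lower genes changed sign in any. Except where detection on all 6 arrays was required, this count includes RSAD2 and OAS2, above background in saline ascites alone. With 1 array left out this count was 8 to 10 lower and 0 to 1 higher (DDX60 without CpG ascites replicate 3), members without overlap numbered 9 to 12 lower and 1 to 3 higher, and the median log2 change of the members was -0.18 to -0.083. Leaving out replicate 1 of both groups gave 1 higher member at an unadjusted p under 0.05 (OAS3) and 2 higher without overlap. Groups with fewer arrays separate more easily at any probe. The shares of all probes in these settings are not given, so the counts without overlap cannot be set against those of the full arrays. Under median scaling, which shifted the median of all probes to 0.080, 14 members lay above and 15 below the saline mean, against 8 and 21, and the members' median was -0.050. Over all probes kept, 0 passed the adjustment, against 1 with the authors' processed values, 1 with no background correction, 14 with a mean-variance trend and 21 without CpG ascites replicate 1. At a detection p of 0.05, 31 members counted as detected against 29.

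Against 5.97% lower and 6.86% higher among all probes kept, other pathway genes at an unadjusted limma p under 0.05 were 4 lower and 4 higher. Lower ones numbered 2 with array weights, 0 with median scaling, 0 without replicate 1 of both groups, and 0 to 4 with 1 array left out, and higher ones 1 to 6 with 1 array left out. They numbered 6 lower with no filter on dim probes, and 6 higher with median scaling, with probes averaged per gene, with no filter, and with detection required on all 6 arrays. The cause of these shifts was not tested.

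A total of 12 members turned sign in 33 of 519 recomputed values, none of them called. With array weights IFI44 was 0.021, IFITM2 -0.0027 and MX1 0.039. With probes averaged, PARP9 was -0.14. With median scaling IFI35 was 0.089, IFI44 0.0034, IFITM1 0.044, ISG20 0.040, MX1 0.072 and PARP14 0.040. Without replicate 1 of both groups IFI44 was 0.15, IFITM1 0.10, MX1 0.071 and DDX58 -0.14. With 1 array left out, log2 changes ran from -0.042 to 0.24 for DDX58, -0.059 to 0.41 for DDX60, -0.092 to 0.11 for IFI35, -0.23 to 0.057 for IFI44, -0.15 to 0.061 for IFITM1, -0.035 to 0.050 for IFITM2, -0.052 to 0.27 for ISG15, -0.13 to 0.039 for ISG20, -0.33 to 0.10 for LY6E, -0.15 to 0.12 for MX1 and -0.17 to 0.034 for PARP14.

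With the replicate block, 8 members were lower at an unadjusted p under 0.05 and 0 probes passed the adjustment. Same-numbered arrays did not deviate together (correlations of -0.10, 0.014 and -0.021), and no array correlated best with that of its own number, so the numbers are not treated as pairs.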
